A study of Danio rerio with 24 samples.

Results

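The effect of miR-21 overexpression on the liver of zebrafish larvae fed a normal control diet was examined in 6 of the 24 RNA-seq libraries of the study. They are the 3 libraries of transgenic larvae on the control diet (miR-21OE-NCD 1, 2 and 3) and the 3 wild-type libraries of the same batches (WT-NCD 7, 8 and 9), chosen by their labels. The question was how the liver responds to a high-cholesterol diet and to miR-21, and every library was made from 13 pooled livers of larvae of 1 clutch at 13 days post fertilization. The larvae ate GEMMA Micro 75 from day 6, which is the normal control diet (NCD). The high-cholesterol diet (HCD) was the same feed with 10% cholesterol by weight, and its 6 libraries of the same clutches are used here only beside the control diet. miR-21OE larvae carry Tg(fabp10a-miR21OE), in which the fabp10a promoter, active in hepatocytes, drives the precursor dre-mir-21-1 together with the green protein Dendra2, and a lens marker, cryaa:mCherry, marks carriers by red eyes. The WT larvae were non-transgenic siblings, and both genotypes share the AB background to which the line was outcrossed. No library here carries the transgene without dre-mir-21-1, and which founder gave these larvae is not given in the sources used here. The contrast is therefore that of transgenic livers with their siblings, with effects of the insertion site, Dendra2 and dre-mir-21-1 in 1 sum. The 3 batches are called clutch 1 (miR-21OE-NCD 1 and WT-NCD 7), clutch 2 (miR-21OE-NCD 2 and WT-NCD 8) and clutch 3 (miR-21OE-NCD 3 and WT-NCD 9).

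MicroRNAs are short RNAs that guide the silencing complex to partly complementary sites, mostly in the 3′ untranslated parts of messenger RNAs, and thereby lower their translation and stability. miR-21 is cut from a hairpin precursor. In mammals it is among the microRNAs most often raised in liver disease and liver cancer, with PDCD4, RECK and PPARA among its known targets. Hepatocytes hold most of the liver's intermediary metabolism, including fatty acid oxidation, bile acid synthesis, one-carbon metabolism and the secretion of plasma proteins.

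Counts per gene were scaled to CPM, the counts of a gene per 1e+06 counts of its library, with TMM factors, and 3 values in a row are in the order of miR-21OE-NCD 1, 2 and 3 or of WT-NCD 7, 8 and 9. Total counts were 22380251 to 27786362 in miR-21OE-NCD and 24357743 to 30487724 in WT-NCD. All 12 hepatocyte markers were detected, with a summed level of 104712 to 156551 CPM in miR-21OE-NCD and 118070 to 174683 CPM in WT-NCD. The first principal component of the 6 libraries held 60.5% of the variance, with 96.6% of its variation between clutches. It separated clutch 1, at -66.88 in miR-21OE-NCD and -80.47 in WT-NCD, from the other clutches. Clutches 2 and 3 overlapped on it, between 23.96 and 51.74. Their batch labels, 11/21_C and 11/21_D, share a stem that the label of clutch 1, 1/12-25, lacks. Genotype made up 76.8% of the next component, which held 14.7% of the variance. The 14 markers of exocrine pancreas, an organ that lies against the liver, summed to 4181, 816 and 50879 CPM in miR-21OE-NCD, against 1344, 18433 and 8807 CPM in WT-NCD. miR-21OE-NCD 3 was the highest of the 6. It also had the most intestine marker RNA, with 314 CPM over 12 markers against at most 41.6 CPM in the other 5 libraries. None of the pancreas or intestine markers passed the test between genotypes.

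Clutch 1 stood apart in the genes that make and take up sterols, which cells repress when cholesterol is plentiful. The 31 tested genes of this list summed to 3593, 18000.2 and 8176 CPM in miR-21OE-NCD, against 3443, 15982 and 21674 CPM in WT-NCD. On the high-cholesterol diet the same sum was 1728, 2331 and 2185 CPM in miR-21OE-HCD, against 1881, 1976 and 1549 CPM in WT-HCD. Both control-diet libraries of clutch 1 thus lay nearer to the high-cholesterol libraries than to the other control-diet libraries. SQLE, squalene epoxidase, had 0.0439, 362 and 74.6 CPM in miR-21OE-NCD and 0.153, 402 and 683 CPM in WT-NCD, and 0 to 1.13 CPM in the 6 high-cholesterol libraries. SQLE was chosen after its values were seen. For 21 of the 31 genes, both control-diet libraries of clutch 1 were lower than all 4 of clutches 2 and 3. The share of all genes with this pattern was not counted, and clutch 1 also stood apart on the first principal component. Whether the pattern is particular to the sterol genes is thus not known. The transgenic and the WT library of clutch 1 share these low sterol values. The count of changed genes, the names of those that still passed and the list medians are also given without clutch 1, but the comparison of the diets was not repeated without it.

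The transgene was read in 3 genes. dre-mir-21-1 (ENSDARG00000082187) had 5.14, 5.19 and 9.51 CPM in miR-21OE-NCD, against 2.03, 1.23 and 0.448 CPM in WT-NCD. The groups did not overlap, with a log2 fold change of 2.55 (SE 0.53). Its p, adjusted after Benjamini and Hochberg from edgeR's quasi-likelihood fit, was 0.0886 and missed the threshold of 0.05. It passed in 4 alternative fits and not in the other 21. Those 4 included DESeq2 with clutch as a block (adjusted p 0.000162) and edgeR over all 24 libraries (adjusted p 0.0144). These libraries were not made from small RNA, so the value concerns longer transcripts that hold the precursor and not the mature microRNA. cryaa, a lens crystallin gene whose promoter is in the construct, had 25, 12 and 10 counts in miR-21OE-NCD, against 0, 0 and 1 counts in WT-NCD. Summed over libraries and scaled for depth, this is a ratio of 47.2, with a 95% exact interval of 8.06 to 1900 that covers counting error only (edgeR adjusted p 0.0818). fabp10a itself, the fatty acid binding protein of hepatocytes whose promoter drives the transgene, had 9686, 10706 and 9443 CPM in miR-21OE-NCD, against 9114, 12527 and 9589.7 CPM in WT-NCD. Its groups overlapped (log2 fold change -0.05, SE 0.23), with a sign that turned under other settings. All 3 miR-21OE libraries were thus above all 3 WT libraries in dre-mir-21-1 and cryaa, as their labels say.

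On the control diet, 51 of 19909 genes tested (0.256%) passed between transgenic and WT livers in edgeR with clutch as a block. Of these, 25 rose (0.126%) and 26 fell (0.131%) in miR-21OE-NCD, and all 51 did so in each of the 3 clutches. In 43 of the 51, the CPM of the groups did not overlap, which was so in 9.83% of all genes tested. The 4 largest rises were in the microRNA precursor dre-mir-30e-2, the kinase scaffold mapk8ip3, mansc1 and the nucleoside diphosphate kinase nme3. The 4 largest falls were in the D-lactate dehydrogenase ldhd, the fatty acid transporter slc27a6, the neurexin nrxn1b and the alcohol dehydrogenase adh8a. The median log2 fold change of all genes was 0.02. With library totals in place of TMM factors it was 0.18 and the split turned to 47 higher and 20 lower genes. Without the clutch block 6 genes passed, DESeq2 with the block called 395 (1.98%), and edgeR with the block over all 24 libraries called 292 (1.47%), of which 160 rose (0.804% of genes) and 132 fell (0.663%). Leaving out a library of the comparison left 12, 21 and 11 genes without miR-21OE-NCD 1, 2 and 3 and 11, 11 and 37 genes without WT-NCD 7, 8 and 9. Without all 4 libraries of a clutch, 7 genes passed without clutch 1, 0 without clutch 2 and 2 without clutch 3, by edgeR on 2 clutches. At an unadjusted p under 0.05 these 3 fits gave 1252, 1220 and 1703 genes, and the 51 genes all kept their direction in each of them. That largely follows from their shared direction in the 3 clutches and adds no support of its own. nrxn1b, slc23a1, igfbp2a, ldhd and ret passed in all 12 fits that left out a single library. Without clutch 1, nrxn1b, igfbp2a, ldhd, dre-mir-30e-2, mapk8ip3, zgc:77439 and nme3 passed, and the other 44 of the 51, slc23a1 and ret included, did not. Without clutch 3 only nrxn1b of the 51 passed, and without clutch 2 none did.

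**Figure D1:**
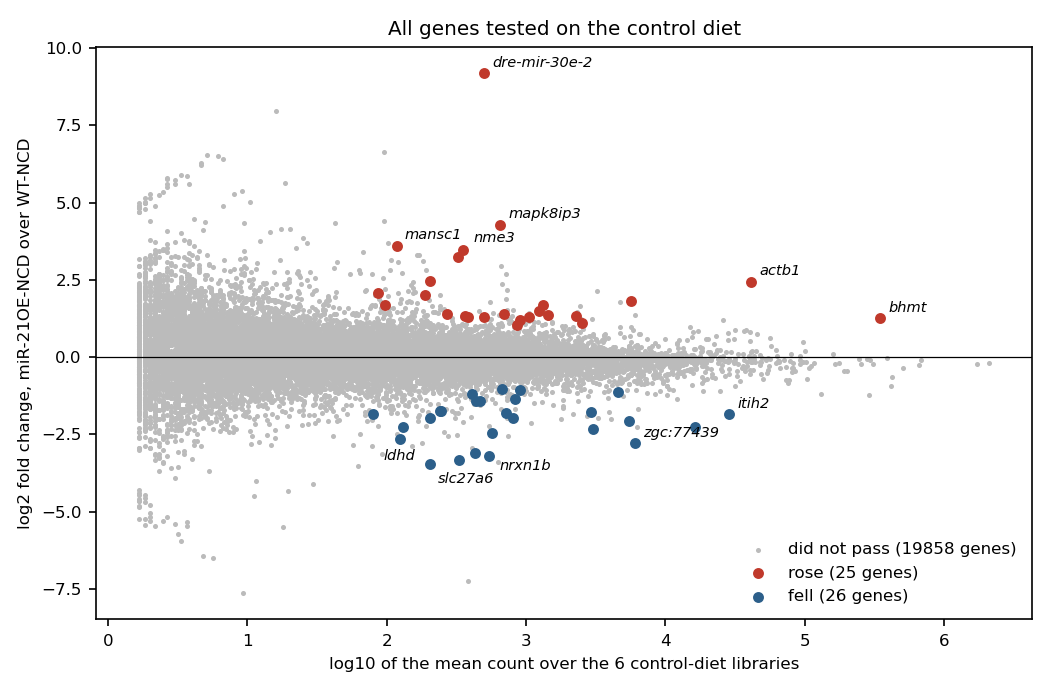
Log2 fold change of miR-21OE-NCD over WT-NCD (vertical axis) against log10 of the mean count over the 6 control-diet libraries (horizontal axis), with 1 point per gene tested. Red points are the 25 genes that rose and blue points the 26 that fell at an adjusted p under 0.05, and grey points did not pass; the precursor dre-mir-30e-2 stands highest, at 9.20.

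The largest rise was in another microRNA precursor. dre-mir-30e-2 (ENSDARG00000083500), a member of the miR-30 family, had 302, 1238 and 1439 counts in miR-21OE-NCD, against 2, 3 and 0 counts in WT-NCD. Scaled for depth, the summed counts stood in a ratio of 598, with a 95% exact interval of 256 to 1840 for counting error only, and the adjusted p by edgeR was 0.00928. WT livers thus had next to none of a transcript that every transgenic library showed. Whether these reads come from the gene's own site or from the construct was not tested. Without the block its adjusted p was 0.0303, without clutch 1 it still passed, and without clutch 2 or clutch 3 it did not. mapk8ip3, which holds the kinases of the JNK cascade together and links cargo to motor proteins, had 40.8, 57.3 and 54.0 CPM in miR-21OE-NCD, against 1.57, 3.68 and 2.65 CPM in WT-NCD (log2 fold change 4.29, SE 0.52, adjusted p 0.00928). nme3, a nucleoside diphosphate kinase that lies next to mapk8ip3 in the gene order of the assembly GRCz12tu, had 9.83, 32.3 and 37.4 CPM in miR-21OE-NCD, against 1.42, 4.03 and 1.94 CPM in WT-NCD (log2 fold change 3.47, SE 0.55, adjusted p 0.0321). The groups were apart in both genes by a wide margin. How far reads are shared between these neighbours is not known, since the strand setting of the counting is not given in the sources used here.

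Other rises were in genes for a receptor, channels and a membrane protein. ret, the receptor tyrosine kinase for the GDNF family of ligands, had 53.5, 8.18 and 13.2 CPM in miR-21OE-NCD, against 6.4, 1.72 and 0.522 CPM in WT-NCD (log2 fold change 3.25, SE 0.36, adjusted p 0.00598). Clutch 1 was the highest in both genotypes, so the lowest miR-21OE library was only a little above the highest WT library although the difference within each clutch was large. grin2db, a subunit of NMDA-type glutamate receptors, had 20.8, 8.32 and 9.37 CPM in miR-21OE-NCD, against 3.60, 2.90 and 2.2 CPM in WT-NCD (log2 fold change 2.02, SE 0.28). itpr1a, the calcium channel of the endoplasmic reticulum that inositol trisphosphate opens, had 57.5, 72.4 and 119 CPM in miR-21OE-NCD, against 10.9, 30.5 and 40.1 CPM in WT-NCD (log2 fold change 1.69, SE 0.29). Adjusted p-values by edgeR were 0.0136 for grin2db and 0.047 for itpr1a, and itpr1a kept its call in only 1 of 15 fits that left out a library or a clutch. mansc1, which codes for a membrane protein, had 0.878, 13.2 and 11.8 CPM in miR-21OE-NCD, against 0, 1.13 and 1.2 CPM in WT-NCD. Its groups overlapped, clutch 1 being low in both genotypes, and its log2 fold change was 3.61 (SE 0.46, adjusted p 0.00928). It did not pass without the block in edgeR or DESeq2, nor without clutch 1.

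Among metabolic genes, slc23a1, the sodium-coupled transporter that brings vitamin C into cells, had 13.2, 14.9 and 14.2 CPM in miR-21OE-NCD, against 2.07, 2.75 and 2.95 CPM in WT-NCD (log2 fold change 2.46, SE 0.24, adjusted p 0.00399). Its spread within a genotype was small beside the difference. glud1a, glutamate dehydrogenase, which feeds glutamate into the citrate cycle, had 590.1, 230.2 and 299.8 CPM in miR-21OE-NCD, against 125, 85.9 and 92.8 CPM in WT-NCD (log2 fold change 1.81, SE 0.23, adjusted p 0.00928). bhmt, which methylates homocysteine with betaine and is among the abundant liver enzymes, had 24326, 18214 and 18004 CPM in miR-21OE-NCD, against 11245, 7738 and 6561 CPM in WT-NCD (log2 fold change 1.27, SE 0.19). dlat, the acetyltransferase subunit of the pyruvate dehydrogenase complex, had 85.6, 93.5 and 72.6 CPM in miR-21OE-NCD, against 31, 30.5 and 37.3 CPM in WT-NCD (log2 fold change 1.35, SE 0.20). For both, every transgenic library was above every WT library, with edgeR adjusted p-values of 0.0197 and 0.0192. mgst2, a microsomal glutathione transferase, had 11.7, 17 and 20.3 CPM in miR-21OE-NCD, against 4.83, 7.61 and 5.78 CPM in WT-NCD (log2 fold change 1.40, SE 0.23, adjusted p 0.0418). Outside metabolism, dnase1l4.1, a deoxyribonuclease, had 12.7, 1.56 and 2.94 CPM in miR-21OE-NCD, against 3.87, 0.393 and 0.485 CPM in WT-NCD (log2 fold change 2.07, SE 0.33), with groups that overlapped and a call that did not hold without the block or without clutch 1.

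actb1, a β-actin of the cytoskeleton, was the most abundant of the 12 largest rises. It had 2107, 3459.6 and 2941 CPM in miR-21OE-NCD, against 362, 507 and 711 CPM in WT-NCD, which is 2836 ± 682 CPM in miR-21OE-NCD and 526 ± 175 CPM in WT-NCD (SD, n = 3 each), with the log2 fold change at 2.44 (SE 0.32, adjusted p 0.00969). pdlim4, a PDZ and LIM domain protein that binds actin filaments through α-actinin, had 9.0, 4.34 and 5.48 CPM in miR-21OE-NCD, against 2.03, 1.77 and 1.79 CPM in WT-NCD (log2 fold change 1.68, SE 0.27, adjusted p 0.0326). actb2, the other β-actin gene, was looked at after its values were seen and did not pass, with 4448, 4503 and 4328 CPM in miR-21OE-NCD, against 3611, 4306 and 3789 CPM in WT-NCD (log2 fold change 0.18, SE 0.20). The 2 actins have nearly the same coding sequence, so the split of reads between them is uncertain. β-actin was also the reference of the study's quantitative PCR.

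**Figure D2:**
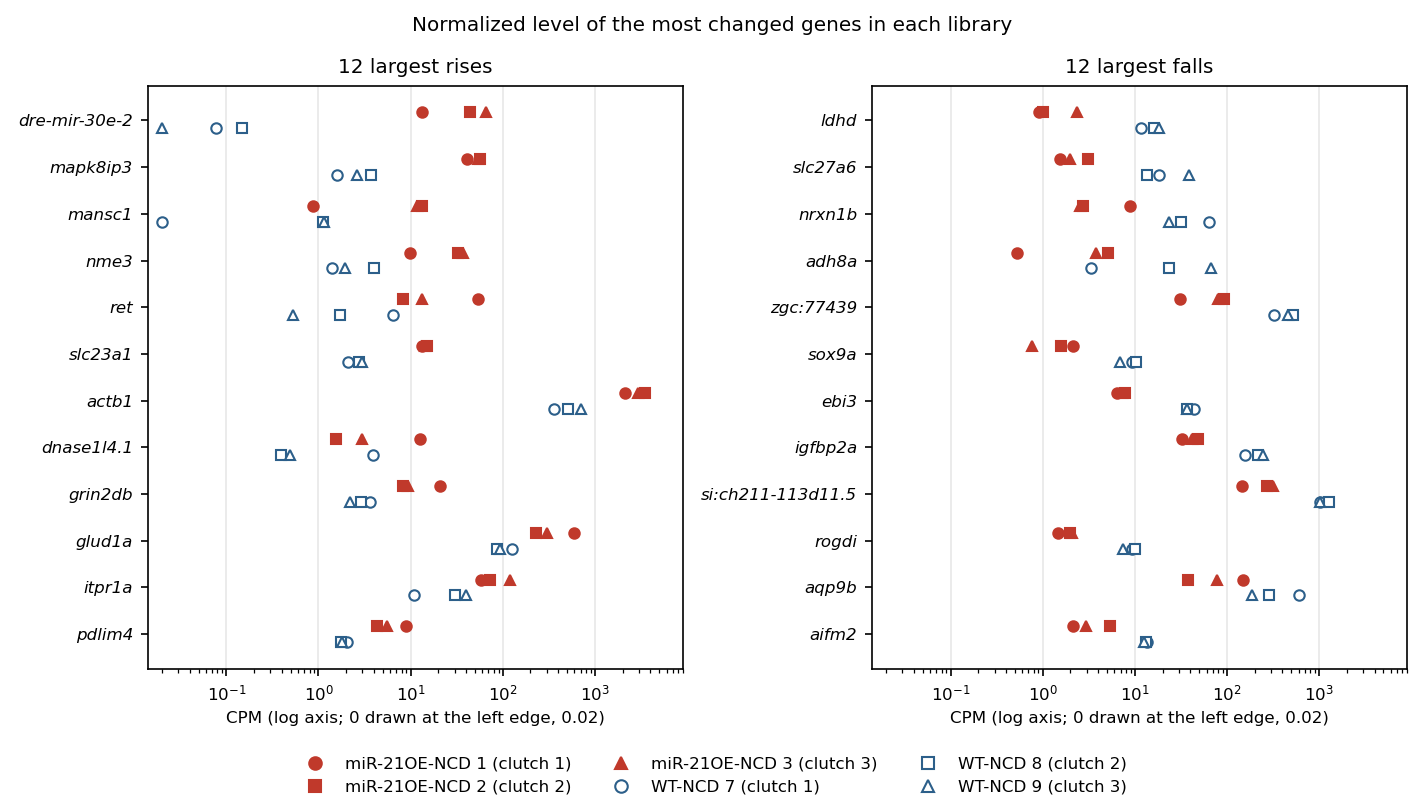
CPM on a log axis of the 12 genes with the largest rises (left) and the 12 with the largest falls (right) in each of the 6 control-diet libraries, with miR-21OE-NCD in red and WT-NCD in open blue and 1 marker shape per clutch. Red and blue are apart for 21 of the 24 genes, and mansc1, dnase1l4.1 and adh8a overlap between clutches.

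The largest fall was in ldhd, the mitochondrial enzyme that turns D-lactate into pyruvate. It had 0.922, 0.996 and 2.36 CPM in miR-21OE-NCD, against 11.7, 16.0 and 18.4 CPM in WT-NCD (log2 fold change -3.47, SE 0.38, adjusted p 0.00598). slc27a6, a transport protein that takes up long-chain fatty acids and joins them to coenzyme A, had 1.54, 3.13 and 1.99 CPM in miR-21OE-NCD, against 18.2, 13.7 and 39.1 CPM in WT-NCD (log2 fold change -3.33, SE 0.49, adjusted p 0.0192). In both genes every transgenic library was far below every WT library. adh8a, an alcohol dehydrogenase, had 0.527, 5.12 and 3.76 CPM in miR-21OE-NCD, against 3.37, 23.2 and 67.1 CPM in WT-NCD. Its level varied with the clutch more than with genotype, yet was lower in the transgenic library of each clutch (log2 fold change -3.10, SE 0.40, adjusted p 0.00928). It is 1 of several copies in tandem families, so reads may be shared.

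Other enzymes and transporters of hepatocytes fell by smaller factors. aqp9b, a channel for glycerol and water, had 148, 37.4 and 77.9 CPM in miR-21OE-NCD, against 607, 283 and 189 CPM in WT-NCD (log2 fold change -2.08, SE 0.28, adjusted p 0.0128). hsd3b7, which acts on the sterol ring early in bile acid synthesis, had 9.09, 12.8 and 18.8 CPM in miR-21OE-NCD, against 35.8, 53.7 and 49.2 CPM in WT-NCD (log2 fold change -1.82, SE 0.28). aifm2, which reduces coenzyme Q and in mammals guards against lipid peroxidation, had 2.11, 5.41 and 2.94 CPM in miR-21OE-NCD, against 13.6, 13.2 and 12.6 CPM in WT-NCD (log2 fold change -1.98, SE 0.26). The groups were apart in all 3, and hsd3b7 and aifm2 had edgeR adjusted p-values of 0.0222 and 0.00969. nnt, the mitochondrial transhydrogenase that makes NADPH, had 74.0, 158 and 131 CPM in miR-21OE-NCD, against 196, 301 and 273 CPM in WT-NCD (log2 fold change -1.14, SE 0.18, adjusted p 0.0326). ppp1r3cb, which targets protein phosphatase 1 to glycogen, had 10.1, 8.43 and 12.5 CPM in miR-21OE-NCD, against 26.3, 27 and 29.9 CPM in WT-NCD (log2 fold change -1.43, SE 0.25, adjusted p 0.0468). ppp1r3cb was close to the threshold, and with library totals its adjusted p was 0.107.

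The genes that fell included igfbp2a, itih2 and ebi3, which code for secreted proteins. igfbp2a, a binding protein of insulin-like growth factors, had 32.9, 48.7 and 41.5 CPM in miR-21OE-NCD, against 158, 219.9 and 248 CPM in WT-NCD, or 41.0 ± 7.91 CPM in miR-21OE-NCD and 209 ± 46.4 CPM in WT-NCD (SD, n = 3 each), with the log2 fold change at -2.34 (SE 0.25, adjusted p 0.00598). itih2, a heavy chain of the plasma inter-α-trypsin inhibitor, had 587, 469.8 and 494 CPM in miR-21OE-NCD, against 1852, 1984 and 1729.7 CPM in WT-NCD (log2 fold change -1.85, SE 0.26, adjusted p 0.0139). ebi3, the shared subunit of the cytokines interleukin 27 and interleukin 35, had 6.41, 7.79 and 7.2 CPM in miR-21OE-NCD, against 43.7, 36.7 and 36.8 CPM in WT-NCD (log2 fold change -2.47, SE 0.31, adjusted p 0.00928). In all 3 the values within a genotype were close to each other and the groups far apart. igfbp2a, itih2, ldhd, nnt and gabarapb, which all fell, are the genes measured again by quantitative PCR. They were picked from these libraries, so their common direction here is no independent evidence. The paper reports that quantitative PCR of independent experiments, relative to β-actin, bore out their expression on the control diet. In the libraries here the β-actin gene actb1 rose (log2 fold change 2.44, SE 0.32), while actb2 changed by 0.18 (SE 0.20). A reference that rises lowers the values relative to it. Whether this affected the quantitative PCR was not tested.

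The remaining strong falls had more varied roles. nrxn1b, a neurexin of the cell surface known from synapses, had 8.78, 2.74 and 2.54 CPM in miR-21OE-NCD, against 63.3, 32.1 and 23.6 CPM in WT-NCD (log2 fold change -3.19, SE 0.28, adjusted p 0.00269). It was past the threshold in 14 of the 15 fits that left out a library or a clutch. sox9a, 1 of the 2 zebrafish copies of the transcription factor SOX9, had 2.15, 1.56 and 0.770 CPM in miR-21OE-NCD, against 9.28, 10.3 and 6.98 CPM in WT-NCD (log2 fold change -2.65, SE 0.43, adjusted p 0.0344). gabarapb, of the Atg8 family on autophagosomes, had 13.0, 7.08 and 10.2 CPM in miR-21OE-NCD, against 34.5, 18.2 and 17.4 CPM in WT-NCD (log2 fold change -1.19, SE 0.20), and rogdi had 1.45, 1.96 and 2.08 CPM in miR-21OE-NCD, against 9.32, 10.1 and 7.35 CPM in WT-NCD (log2 fold change -2.27, SE 0.29). Their edgeR adjusted p-values were 0.0438 and 0.00928. With library totals gabarapb (edgeR adjusted p 0.0614) and sox9a (edgeR adjusted p 0.051) did not pass. A pair of genes named only by clone or collection numbers, zgc:77439 and si:ch211-113d11.5, fell with log2 fold changes of -2.79 (SE 0.37) and -2.28 (SE 0.28). zgc:77439 had 30.7, 93.0 and 79.2 CPM in miR-21OE-NCD, against 326, 519.9 and 459.9 CPM in WT-NCD. si:ch211-113d11.5 had 147, 274 and 313 CPM in miR-21OE-NCD, against 1023, 1268 and 1036 CPM in WT-NCD, and in both the groups were apart.

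The other 19 genes, 10 higher and 9 lower, had log2 fold changes between -1.96 and 1.48. Among those that fell were pank1a, a pantothenate kinase of coenzyme A synthesis (-1.96, SE 0.27), nme4, a mitochondrial nucleoside diphosphate kinase (-1.79, SE 0.31), slc1a3a, a glutamate transporter (-1.35, SE 0.23), and angptl2b, an angiopoietin-like secreted protein (-1.84, SE 0.28). Those that rose included cox8a, a subunit of cytochrome c oxidase (1.04, SE 0.18), slc16a6b, a monocarboxylate transporter (1.29, SE 0.22), stau2, a protein that binds double-stranded RNA (1.1, SE 0.19), and ecpas, a proteasome adaptor (1.34, SE 0.19). These examples were chosen after their values were seen. The remaining ones were ppm1aa, ccdc141, cnpy3, soul3 and slc26a3.2, all lower, and rgl1, zdhhc3b, rnf145b, igsf3, eml3 and CABZ01092156.1, all higher.

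Gene lists of liver metabolism were read by how many members passed, beside 0.256% over all genes. The lists were chosen with earlier results of these data known. They also hold ldhd, nnt, igfbp2a, itih2 and gabarapb, which the study picked from these libraries. The counts of calls in this and the next paragraph therefore describe the lists and are no test of them. Of 54 genes of fatty acid oxidation and carnitine, 1 fell (slc27a6) and none rose, with a median log2 fold change of -0.24. In DESeq2 with the block 10 fell and 2 rose, where 1.05% of all genes fell and 0.934% rose. Of 49 genes of glycolysis and gluconeogenesis, 2 fell (ldhd and ppp1r3cb), with a median of -0.08. pklr, the liver pyruvate kinase, did not pass in edgeR, with 6689, 7656 and 6913 CPM in miR-21OE-NCD, against 20503, 15689.5 and 13350.3 CPM in WT-NCD (log2 fold change -1.21, SE 0.27, adjusted p 0.108), and was named after its values were seen. Of 41 genes of pyruvate use and the citrate cycle, dlat rose and nnt fell, with a median of 0.09, and in DESeq2 5 rose and 4 fell. mdh2, mitochondrial malate dehydrogenase, missed the threshold narrowly, with 305, 293 and 324 CPM in miR-21OE-NCD, against 162, 156 and 155 CPM in WT-NCD (log2 fold change 0.96, SE 0.18, adjusted p 0.0563), and was also named after its values were seen. Of 38 antioxidant genes mgst2 rose and aifm2 and nnt fell, with a median of -0.03.

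Further lists had 1 call each. These were bhmt among 41 genes of one-carbon and methionine metabolism (median -0.14), glud1a among 40 of amino acid catabolism and the urea cycle (median -0.22) and hsd3b7 among 24 of bile acid synthesis and transport (median 0.08). igfbp2a was the only call among 26 genes of the insulin and IGF axis (median -0.17), itih2 among 42 plasma proteins of hepatocytes (median -0.33) and sox9a among 32 hepatocyte transcription factors (median -0.03). Likewise gabarapb was the only call among 45 genes of lysosome and autophagy (median 0.28) and ebi3 among 23 of inflammation (median 0.23). The list of hepatocyte transcription factors also holds SOX9, which is read below as a marker of bile duct cells. DESeq2 with the block turned the balance of the lysosome list, with 7 that rose and 3 that fell, and edgeR over all 24 libraries gave 6 and 2. In the same DESeq2 fit 3 genes of the amino acid list rose and 7 fell, 1 plasma protein gene rose and 7 fell, and 4 genes of the one-carbon list rose and 3 fell. Of 43 genes of the actin cytoskeleton, actb1 and pdlim4 rose, with a median of 0.19, and in DESeq2 8 rose and 1 fell. In the plasma protein list 37 of the 42 genes had a negative log2 fold change, against 47.8% of all genes tested.

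No gene passed in 8 lists, namely the 31 genes of sterol synthesis and uptake (median -0.60), 28 of fatty acid synthesis and lipid storage (-0.28), 22 of apolipoproteins (-0.20), 30 of PPAR and partners (-0.13), 8 of the pentose phosphate pathway (0.01), 34 of the cell cycle (-0.35), 24 of endoplasmic reticulum stress (-0.27) and 31 of the circadian clock (-0.30). DESeq2 with the block called 0, 1, 1, 4, 2, 1, 0 and 3 genes in these lists, in the same order. Over all genes 0.256% passed by edgeR and 1.98% by DESeq2, both with the block. The summed sterol level given above was lower in the transgenic library of clutch 3 and not in those of clutches 1 and 2. DHCR7, which acts late in cholesterol synthesis and was named after its values were seen, had 23.0, 173 and 59.3 CPM in miR-21OE-NCD, against 75.8, 475 and 722 CPM in WT-NCD, with log2 differences of -1.70, -1.45 and -3.59 in clutches 1, 2 and 3, and an edgeR adjusted p of 0.319. SQLE differed by -0.26, -0.15 and -3.19 in the same clutches. Under library totals the medians of the lists of glycolysis, PPAR and partners, one-carbon metabolism, antioxidant genes and hepatocyte transcription factors were above 0 but, as with TMM factors, below the median of all genes. Without clutch 1 the sterol median was -0.72, that of glycolysis 0.02, of bile acids -0.04 and of the pentose phosphate pathway -0.25, and the signs of the other list medians stayed as they were.

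**Figure D3:**
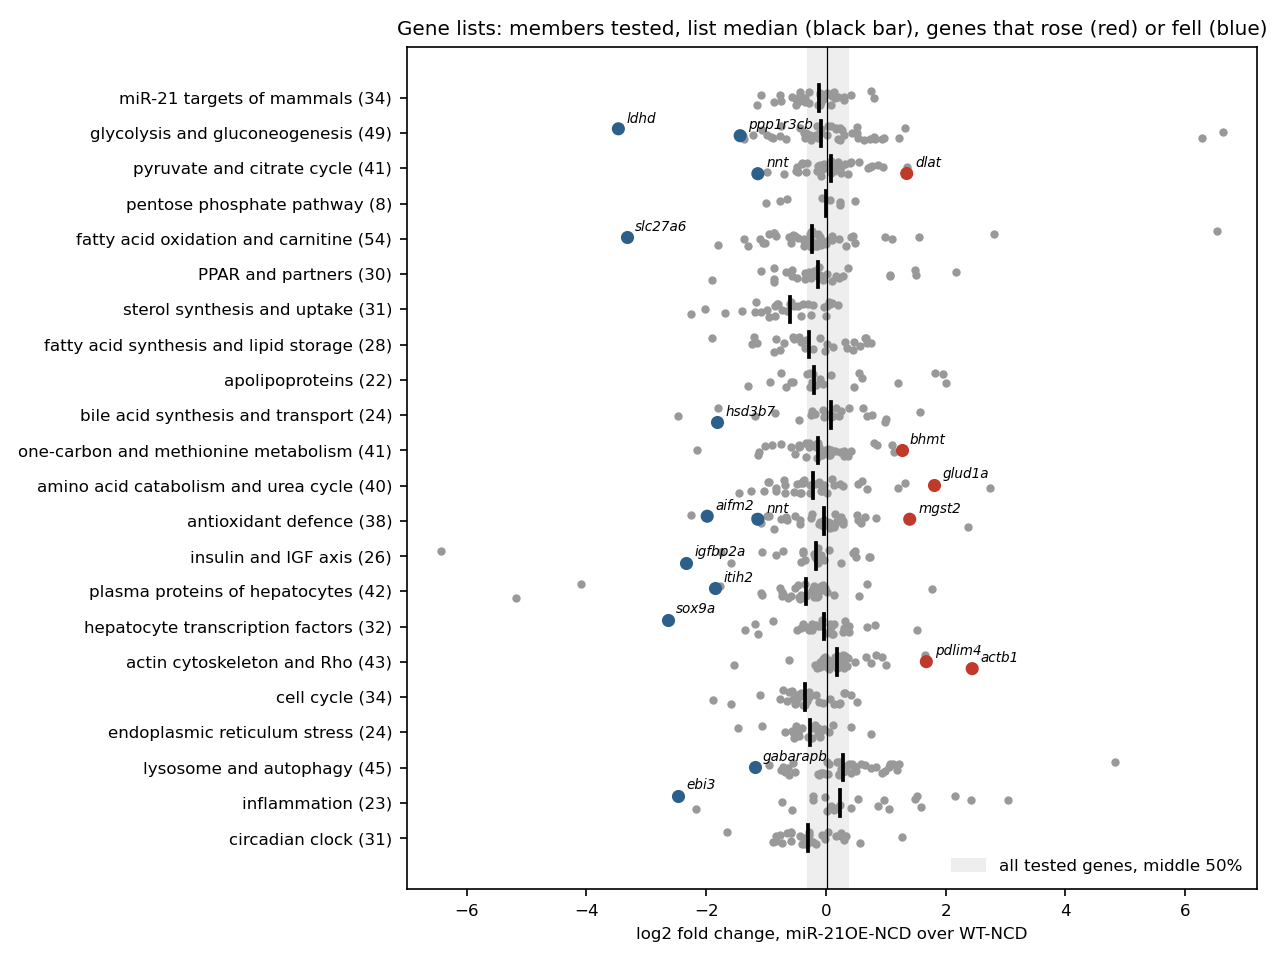
Log2 fold change of miR-21OE-NCD over WT-NCD (horizontal axis) for every tested member of 22 gene lists, with the number tested in brackets, the list median as a black bar and genes past the threshold in red (rose) or blue (fell). The grey band holds the middle 50% of all genes; the sterol list has the lowest median, -0.60, and no member past the threshold.

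Transcripts known from mammals as targets of miR-21 were read in 34 genes, of which 0 passed by edgeR with the block. Of all genes 0.256% passed in that fit, so 0 of 34 does not tell these genes from others. Their median log2 fold change was -0.12, and 22 of 34 were negative (64.7%, against 47.8% of all genes). Under library totals the median was 0.02, beside 0.18 for all genes, and without clutch 1 it was -0.21. DESeq2 with the block, which called 1.98% of all genes, called 1, pparab, a nuclear receptor of fatty acids that switches on their oxidation. It had 56.8, 41.1 and 61.4 CPM in miR-21OE-NCD, against 96.2, 155 and 85.9 CPM in WT-NCD, so that the groups were apart (log2 fold change -1.09, SE 0.27, edgeR adjusted p 0.159, DESeq2 adjusted p 0.009). Its copy pparaa had 23.9, 63.7 and 30.9 CPM in miR-21OE-NCD, against 27.2, 108 and 93.2 CPM in WT-NCD (log2 fold change -0.87, SE 0.28, edgeR adjusted p 0.297), with groups that overlapped. Between the copies of another classical target the fitted signs differed. On the log2 scale pdcd4a changed by 0.81 (SE 0.24, edgeR adjusted p 0.244). The second gene, with the symbol PDCD4, changed by -1.15 (SE 0.48, edgeR adjusted p 0.476). Its log2 differences in clutches 1, 2 and 3 were -1.89, -1.62 and 0.30, so it had no common direction. In both genes the groups overlapped. These genes were named after their values were seen.

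The same genotypes were compared on the high-cholesterol diet in other libraries of the same 3 clutches, which shows whether the 51 genes moved there too. All 51 had the same sign in miR-21OE-HCD against WT-HCD, against 63.4% of all genes, and 50 did so in each clutch. Of the 51, 33 also passed on the high-cholesterol diet, where 48 genes passed in all (0.241%). The shared genes are 64.7% of the control-diet list and 68.8% of the high-cholesterol list. No library is shared by the 2 comparisons, but siblings of 1 clutch are in both and the spread was estimated over all 12 libraries. On the log2 scale slc23a1 changed by 2.46 (SE 0.24) under NCD and by 2.58 (SE 0.24) under HCD. For mapk8ip3 these values were 4.29 (SE 0.52) and 3.94 (SE 0.51), and for ldhd -3.47 (SE 0.38) and -2.77 (SE 0.36). All 3 passed on both diets, and the unadjusted p of the difference between diets was 0.714, 0.615 and 0.189, by edgeR in the same order.

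The difference of the genotype effect between diets was tested directly. By edgeR with the block 0 genes passed, 405 had an unadjusted p under 0.05, and DESeq2 with the block called 3. Among the 51 genes, 6 had an unadjusted edgeR p under 0.05 for this difference. The 51 were chosen by their control-diet effect, which is a part of this difference. Their number can therefore not be set against that of all genes. ccdc141 had the smallest unadjusted edgeR p of the 51 (0.00179), with -1.43 (SE 0.17) under NCD and -0.48 (SE 0.17) under HCD. ppp1r3cb changed by -1.43 (SE 0.25) under NCD and by -0.06 (SE 0.24) under HCD (unadjusted edgeR p of the difference 0.00212), and sox9a by -2.65 (SE 0.43) and -0.93 (SE 0.42) (0.0143). dre-mir-30e-2 changed by 9.20 (SE 1.1) and 5.81 (SE 0.85) (0.0394). Its WT counts were few, with 2, 3 and 0 in WT-NCD 7, 8 and 9 and 40, 3 and 4 in WT-HCD 7, 8 and 9. The size of its difference between diets thus rests on few WT counts. The transgenic libraries had 13.3, 44.0 and 65.2 CPM under NCD and 34.9, 20.6 and 32.1 CPM under HCD, with ranges that overlapped. None of these differences between diets holds after adjustment over all genes. The 3 genes called by DESeq2 were fads2, a fatty acid desaturase, cyp27b1, which activates vitamin D, and dio2, which activates thyroid hormone. On the control diet none of them passed, with edgeR log2 fold changes of -0.10 (SE 0.31), -1.69 (SE 0.57) and 0.72 (SE 0.48), against 2.36 (SE 0.34), 1.78 (SE 0.59) and 3.75 (SE 0.52) on the high-cholesterol diet.

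**Figure D4:**
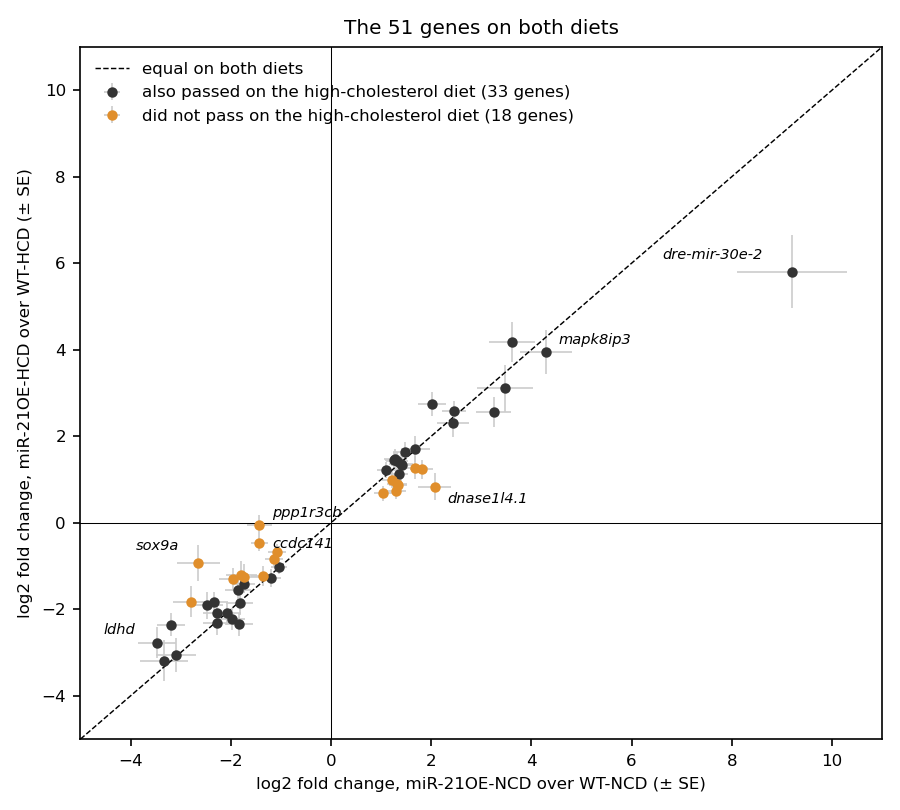
Log2 fold change of miR-21OE over WT on the control diet (horizontal axis) and on the high-cholesterol diet (vertical axis) for the 51 genes, with bars of 1 SE. All 51 points have the same sign on both axes, 33 passed on both diets (dark) and 18 on the control diet but not on the other (orange), and ppp1r3cb lies near 0 on the high-cholesterol diet, at -0.06 (SE 0.24).

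Markers of other cell types were measured beside these results, since in pooled tissue fewer cells of a type and less RNA per cell cannot be told apart. No marker passed except sox9a, which stood among 9 markers of cholangiocytes, the cells of the bile ducts, only because the symbol SOX9 matched both copies while the marker chosen was sox9b. The other SOX9 gene (ENSDARG00000043923) had 43.1, 21.2 and 19.2 CPM in miR-21OE-NCD, against 19, 21.1 and 19.3 CPM in WT-NCD (edgeR adjusted p 0.803). The summed level of those 9 was 1630 to 3221 CPM in miR-21OE-NCD and 1584 to 3452 CPM in WT-NCD, so that the groups overlapped. The 7 endothelial markers summed to 87.8, 85.6 and 98.0 CPM in miR-21OE-NCD, against 129.8, 126.7 and 117.9 CPM in WT-NCD. The 9 erythrocyte markers summed to 159, 92.6 and 115 CPM in miR-21OE-NCD, against 390.3, 210.3 and 193 CPM in WT-NCD, and 2 of them, hbaa1 and hbaa2, were at 0 in all 6 libraries. Both sums were lower in every transgenic library than in any WT library. Of the 6 endothelial markers other than kdrl, 4 were lower in this way and none was higher. Among all genes tested, the groups were apart in 9.83%, in either direction. Most of the erythrocyte sum came from rhag, an ammonia channel of red blood cells, with 141, 51.7 and 76.2 CPM in miR-21OE-NCD, against 373, 158 and 149.5 CPM in WT-NCD (log2 fold change -1.33, SE 0.24, edgeR adjusted p 0.0534). Without rhag the erythrocyte markers summed to 17.6, 40.9 and 39.2 CPM in miR-21OE-NCD, against 17.6, 52.2 and 43.9 CPM in WT-NCD, and overlapped. The 19 macrophage markers overlapped in their sum, to which 1 MFAP4 gene (ENSDARG00000090557) gave between 7.52 and 86.4 CPM. Without it the other 18 summed to 40.3, 41.2 and 33.8 CPM in miR-21OE-NCD, against 32.4, 27.4 and 22.7 CPM in WT-NCD, with no overlap. Among these 18, 5 were higher in every transgenic library than in any WT library and none was lower, beside the same 9.83% of all genes. MPEG1 (ENSDARG00000055290) for example had 5.05, 5.65 and 6.16 CPM in miR-21OE-NCD, against 4.03, 3.09 and 2.84 CPM in WT-NCD. None of the 5 passed the test. Matching without the suffix brought in further MFAP4 and MPEG1 genes where only mfap4.1 and mpeg1.1 were chosen. Of the 19 markers 15 were tested, and some were low. c1qa, among the 5, had 13, 12 and 7 counts in miR-21OE-NCD, against 2, 2 and 6 counts in WT-NCD. The summed markers of endocrine pancreas, neutrophils, lymphocytes, stellate cells, muscle, lens and skin overlapped, although the lens gene cryaa, whose promoter is in the construct, did not. The sums without the most abundant marker were added after values were seen. The part of cell composition in the genes above was not tested. Exocrine pancreas RNA was highest in miR-21OE-NCD 3, and without this library 11 of the 51 genes passed. That drop is not particular to this library. Without miR-21OE-NCD 1, WT-NCD 7 or WT-NCD 8, 11, 11 and 10 of the 51 passed. Without miR-21OE-NCD 2 or WT-NCD 9, 16 and 28 did.

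**Figure D5:**
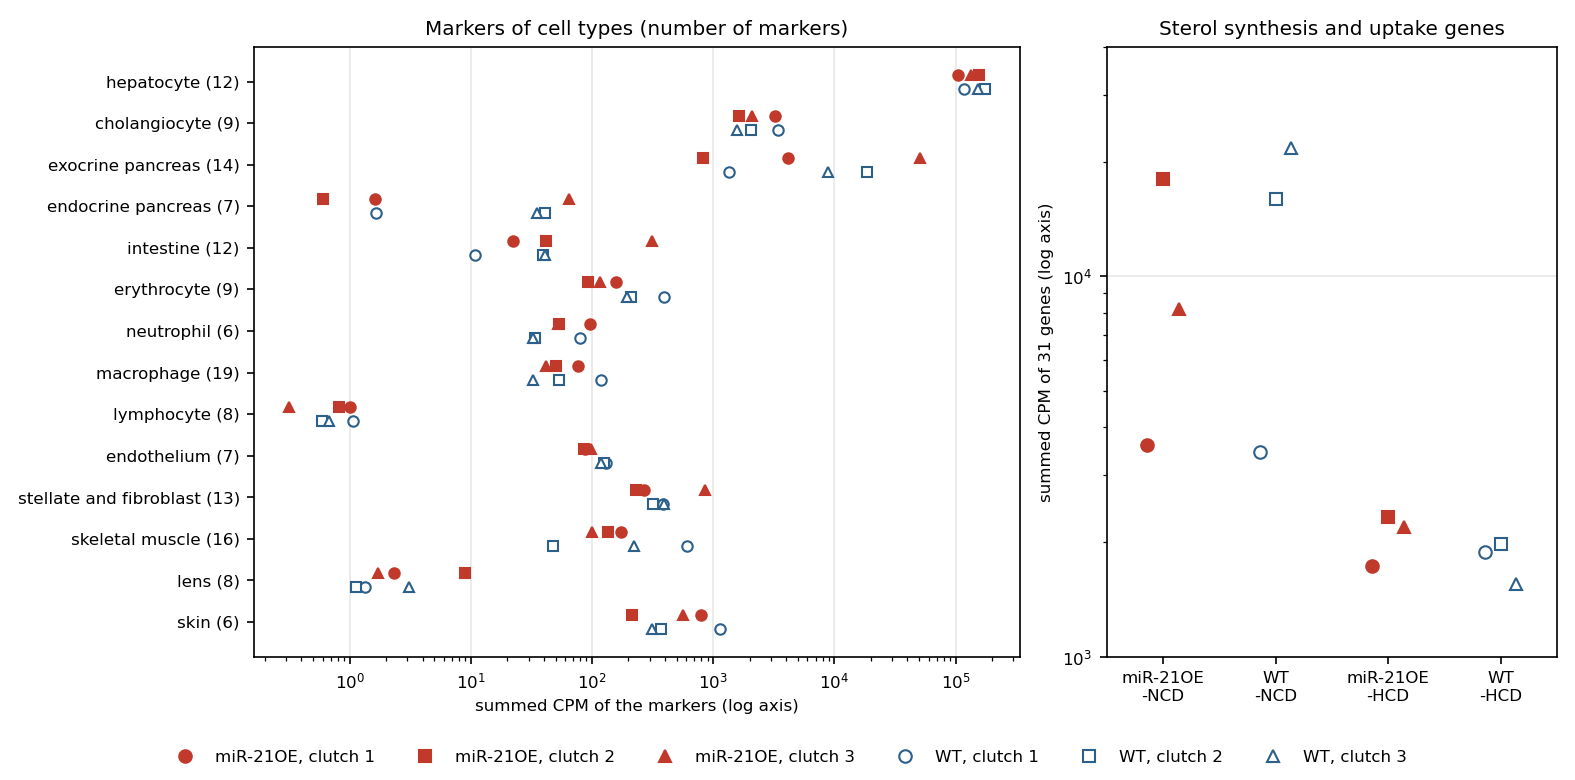
Left, summed CPM on a log axis of the markers of 14 cell types in the 6 control-diet libraries, with the number of markers in brackets. Right, summed CPM on a log axis of the 31 sterol genes in the 12 libraries of both diets; the control-diet libraries of clutch 1 (circles) lie at 3593 CPM in miR-21OE-NCD and 3443 CPM in WT-NCD, below the other 4 control-diet libraries.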

How the data were processed

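Livers were dissected and pooled by the authors, and directional libraries depleted of ribosomal RNA were sequenced as paired 150 bp reads. The submitters' processing notes name cutadapt 1.16, STAR 2.7.9a, featureCounts 1.6.3 and the build GRCz11; the strand setting of the counting is not given in the sources used here. The authors deposited raw counts per Ensembl gene for all 24 libraries, with no normalization, and 0 value columns were left unused. This leaves the counts of overlapping and antisense genes uncertain, as well as those of near-identical copies.

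Genes with at least 10 counts in total over the 6 control-diet libraries were kept (19909 of 32520). The 12 libraries of the 3 clutches were fitted in edgeR 4.0.16 (R 4.3.3) with TMM factors, 4 group means and clutch as a block (6 residual degrees of freedom). The quasi-likelihood F-test, two-sided, was used with Benjamini-Hochberg adjustment at 0.05. The standard error is the log2 fold change divided by the square root of F. Log2 differences within a clutch used CPM plus 0.5. The script was tested on simulated data.

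Batch is given by the labels, and samples of a batch come from the same clutch. After removal of group means, log2 CPM was correlated between libraries over 11029 genes. Within a clutch the mean r was 0.468 over 18 pairs (minimum 0.197). Between clutches the mean r was -0.218 (maximum 0.488), but removing group means by itself makes this mean negative. miR-21OE-NCD 2 correlated more with WT-NCD 9 of another clutch (0.488) than with WT-NCD 8 of its own clutch (0.352). Pairing by clutch thus rests on the labels, and these values do not show it for every clutch. Libraries of a group differed by far more than sampling noise and all counted as separate samples. They are separate pools from separate clutches. Total counts limit the precision for low genes, and intervals are for counting error alone, as there are no molecular identifiers.

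The libraries, gene lists and tests were chosen with earlier results of these data known. Genes named are, among those past the threshold with a mean of at least 50 counts and 1 direction in all clutches, the 12 largest rises and 12 largest falls, every called member of a list, the transgene genes and the genes of the study's quantitative PCR; others are marked in the text. Alternatives were fits without the block, over the 6 or all 24 libraries, with DESeq2 1.42.0, with RLE factors or library totals, with a minimum of 1 count or filterByExpr, and without each library or clutch. Gene order, list medians without clutch 1 and marker sums without their most abundant member were added after values were seen.

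Names follow the study where it names an ID (2326 IDs, clone-type names of uncalled genes left out) and otherwise the symbol of a gene table (29201 IDs), which for many zebrafish genes is that of the human gene. Gene order was taken from a RefSeq table of GRCz12tu, by name. Tables of the study's own comparisons were not used.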

Additional observations from a re-analysis of the deposited data

How the results depend on the processing

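The 51 genes of the main comparison became 6 in edgeR with no replicate block, 26 in the fit of only the 6 control-diet libraries with the block and 0 in that fit without it, where 826 genes had an unadjusted p under 0.05. All 6 and 20 of the 26 were among the 51. Over all 24 libraries with the block 292 genes passed, 48 of the 51 among them. DESeq2 gave 395 with the block, all 51 among them, and 108 without it, 34 among them. A minimum of 1 count gave 89, with all 51 among them. RLE factors (52), library totals (67) and filterByExpr (55) gave counts within 1.5 times. Fits that left out 1 library gave 11 to 63 genes (12 without miR-21OE-NCD 1 and 21 without miR-21OE-NCD 2), and those that left out a clutch gave 0 to 7, a range of 0 to 63 over all of them. The difference between diets was called for 0 genes by edgeR with and without the block and for 3 by DESeq2 with the block.

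Among the named genes, 32 passed in the main comparison and none of them reversed in any alternative. Of these 32, 31 passed over all 24 libraries, 32 in DESeq2 with the block, 29 with library totals, 23 in DESeq2 without the block, 17 in the 6-library fit with the block and 6 in edgeR without the block. Over the 15 fits that left out a library or a clutch, a named gene kept its call in 1 to 14. The fewest were 1 for itpr1a, 2 for mgst2, 3 each for gabarapb and pdlim4, and 4 each for nnt, sox9a and ppp1r3cb. dre-mir-21-1 passed in 4 alternatives and cryaa in 1. fabp10a, which passed in none, changed sign with library totals (0.11), without WT-NCD 8 (0.024), without miR-21OE-NCD 3 (0.0060) and without clutch 2 (0.035), and ranged from -0.16 without clutch 1 upwards; it has no direction here. The causes of these differences were not tested, beyond the smaller number of samples in the fits that leave some out. With 3 clutches, a fit without a clutch rests on 2 pairs.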

Other observations

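Where the changed genes lie was read from the gene order of the assembly GRCz12tu, in which 13747 of the tested genes and 49 of the 51 could be placed by name. The 49 (0.356% of the genes placed) were counted on each of the 25 chromosomes, with no test of their spread. The 3 chromosomes with the most changed genes held 20 of them, beside 1782 of the 13747 genes placed. They were picked for that number, so an excess on them was fixed in advance and shows no clustering. The first of these held nrxn1b, aifm2, adh8a, glud1a, ret, dre-mir-30e-2 and ppm1aa, which are 7 of 554 genes placed there (1.26%). The second held bhmt, nnt, dlat, cox8a, slc23a1, rnf145b and pdlim4, 7 of 532 (1.32%), and the third nme4, mapk8ip3, nme3, hsd3b7, slc16a6b and rogdi, 6 of 696 (0.862%). Both directions occurred on each of the 3, with 3, 6 and 3 genes that rose.

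Only 2 pairs of changed genes lay within 10 genes of each other. mapk8ip3 and nme3 are neighbours, with log2 fold changes of 4.29 (SE 0.52) and 3.47 (SE 0.55), and slc16a6b and rogdi lie 5 genes apart, with 1.29 (SE 0.22) and -2.27 (SE 0.29). Around dre-mir-30e-2, the 5 genes on either side include 7 that were tested, of which 0 passed by edgeR, with log2 fold changes between -0.15 and 2.52. None of the tested neighbours within 5 genes passed for slc23a1 (6 tested, -0.79 to 0.52), ret (9 tested, -0.77 to 1.02) or actb1 (4 tested, -0.26 to 1.58). Around mapk8ip3, nme3 was the only 1 of 9 to pass. The site of the transgene is not given in the sources used here, and these positions were looked at after the values were seen.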
